A study of Caenorhabditis elegans with 30 samples.

Results

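The aminoacyl-tRNA synthetase genes of Caenorhabditis elegans were taken by their names, as every row of the count table whose gene identifier maps to a public name of 1 letter, the letters ars, a hyphen and 1 digit, such as rars-1 or yars-2. This rule found 32 genes among the 46911 worm genes counted. Of these, 20 names end in -1, 1 for each of the 20 amino acids of protein, 11 end in -2, and fars-3 alone ends in -3. For 11 amino acids there was both a -1 and a -2 name, and for the other 9 there was 1 name each. Coding length ran from 417 to 1186 codons for the -1 names and from 418 to 970 codons for the -2 names, and 13 of the 32 genes had transcript models with more than 1 start codon.

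A synthetase joins an amino acid to its own tRNA at the cost of ATP, and an elongation factor then carries the charged tRNA to the ribosome. Proteins are made both in the cytosol and in mitochondria, and animals use separate nuclear genes for many of the mitochondrial enzymes, while a few genes serve both compartments from different start codons. Worm synthetase names ending in -1 are commonly read as cytosolic and those ending in -2 as mitochondrial. The annotation used here gave no compartment, so the classes are named below by their numbers.

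The study followed starved first-stage (L1) larvae, which hatch without food and arrest development, in the strain irld and in the laboratory wild type N2. The irld strain, LRB444, is 1 line that carries the alleles duk1 of irld-39 and duk17 of irld-52, 2 genes whose proteins resemble the extracellular portion of the insulin receptor; N2 carries neither. Each strain was sampled after 6, 12, 24, 48 and 72 h of arrest, with 3 biological replicates per group per the labels, which gives 30 libraries in 10 groups. These times are 18, 24, 36, 60 and 84 h after bleaching, the hours that the sample titles carry. All times below are hours of arrest. All groups were hatched and starved in buffer without food after bleaching, and each sample pooled many whole larvae, so that for every gene fewer cells of a type and less RNA per cell cannot be told apart.

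Counts assigned to worm genes ranged from 7563687 to 19815884 per library, with a median of 9650171. The labels could not be checked on the targeted genes: irld-39 had 30 counts over all irld libraries and 38 over all N2 libraries, and irld-52 had 59 and 82. Genes of adult tissue and sperm, not due in an L1 larva, were low, with summed levels of 5 such genes between 4.39 and 20.4 CPM over the 30 libraries. The leading component of all genes held 53.4% of the variance, and along it 4 libraries stood farthest from the others of their groups. These were replicate 1 of irld at 6 h (-56.8, against -115 and -117), replicate 1 of irld at 12 h (-25.1, against -68.3 and -67.5), replicate 3 of irld at 48 h (37.3, against 87.1 and 81.2) and replicate 2 of N2 at 24 h (-23.2, against 56.7 and 24.4).

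All 32 synthetase genes passed the filter on low counts. Their levels spanned a wide range per length. In N2 at 6 h, sars-1, which encodes the seryl enzyme, was at 285 ± 34.1 CPM per kilobase of exon (SD, n = 3), ahead of dars-1 for aspartate at 162 ± 13.2. The lowest was pars-2 for proline, at 3.14 ± 0.542 CPM per kilobase. Between them, ears-1, aars-2 and pars-1 lay at 127, 125 and 122 CPM per kilobase and did not differ beyond their spread. CPM here are read counts brought to a common library size after trimmed-mean (TMM) scaling.

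The order was another one at 72 h of arrest. In N2, lars-1 for leucine was then the highest at 465 ± 96.8 CPM per kilobase, followed by sars-1 at 327 ± 37.2, rars-1 for arginine at 239 ± 30.6 and cars-1 for cysteine at 171 ± 35.3. In irld at 72 h the same 4 genes, of which cars-1 was 7th there, had 474 ± 10.99, 383 ± 14.1, 266 ± 18.5 and 163 ± 26.2 CPM per kilobase. At 6 h lars-1, rars-1 and cars-1 had ranked 7th, 16th and 17th in N2, and pars-1, 5th at 6 h, ranked 17th at 72 h.

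**Figure D1:**
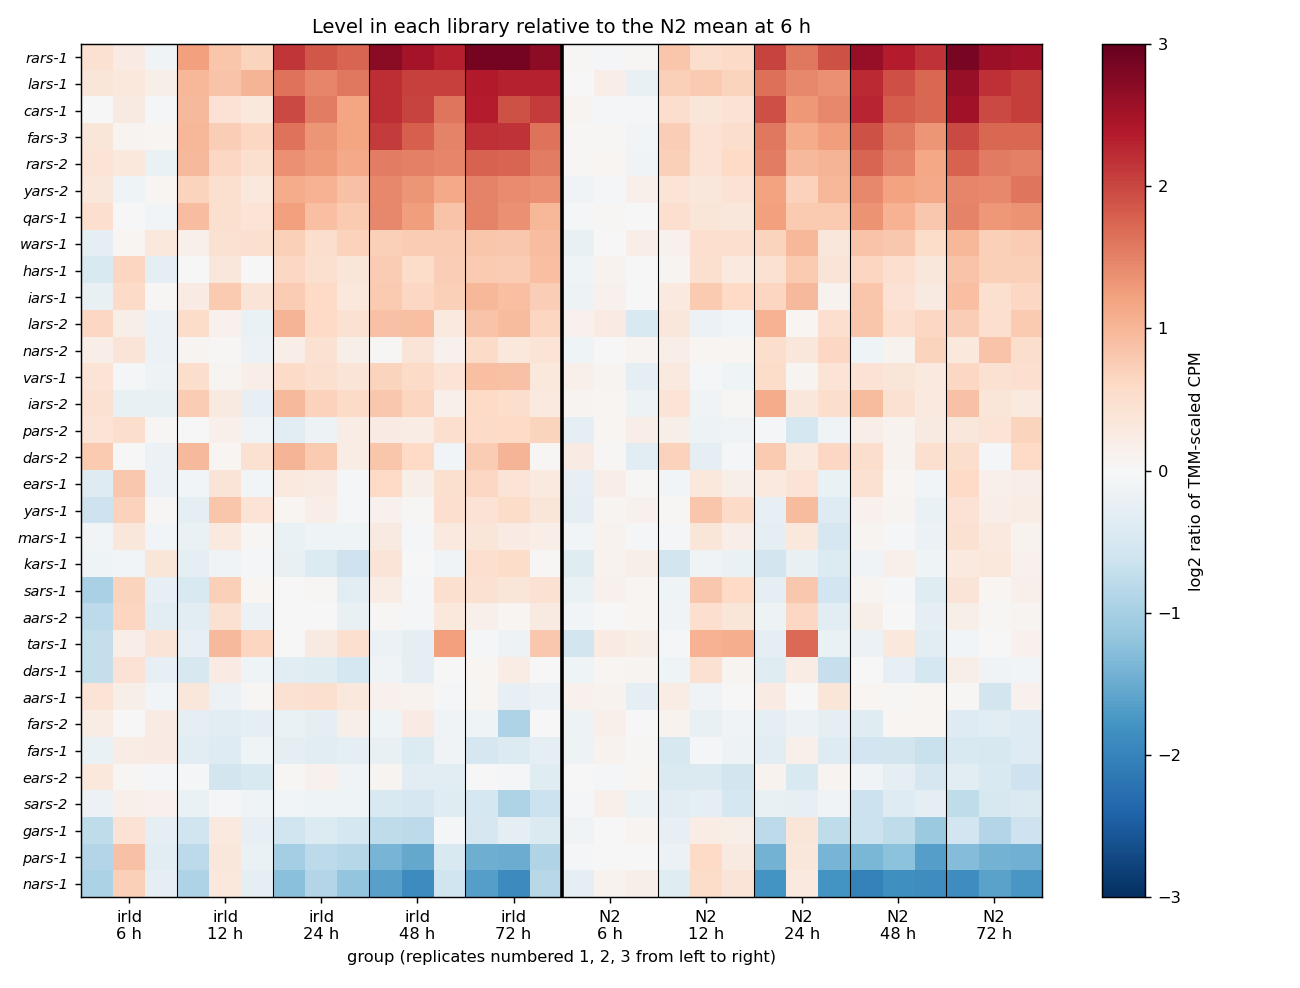
Each row is 1 of the 32 synthetase genes, sorted by its change in N2, and each column is 1 library; the colour is the log2 ratio of its TMM-scaled CPM to the N2 mean at 6 h. The uppermost rows darken towards red with time in both strains, the lowest rows turn blue, and replicate 2 of N2 at 24 h breaks the pattern of its group in nars-1, pars-1, gars-1 and tars-1.

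The family as a whole did not move one way. At 72 h against 6 h, 11 genes rose and 4 fell in irld, and 14 rose and 6 fell in N2 (edgeR quasi-likelihood test, Benjamini-Hochberg adjusted p under 0.05 over 15508 genes). The 2 strains share no libraries in these comparisons, but all libraries were fitted together with shared scaling and spread. The calls of the strains are thus not fully independent. For lars-2, leaving out any 1 of the N2 libraries at 6 h brought the irld value past the threshold. Of all genes tested, 20.6% were higher and 25.99% lower in irld, and 23.1% were higher and 27.9% lower in N2. The median log2 change was 0.32 over the 32 genes and -0.13 over all genes in irld, and 0.36 and -0.11 in N2. Scaled by library size alone the medians were -0.17 over the 32 genes in each strain, and scaled by the spike-in controls they were -0.91 in irld and 0.06 in N2. Those scalings also moved the median of all genes, to -0.59 and -1.58 in irld and to -0.63 and -0.57 in N2. The spike-in share of worm and spike-in counts differed widely between replicates. In irld it was 0.304%, 1.567% and 1.957% at 6 h and 0.603%, 3.883% and 3.158% at 72 h. In N2 it was 0.673%, 1.936% and 1.491% at 6 h and 0.441%, 3.197% and 2.138% at 72 h. With spike-in scaling that spread enters the values of every gene, so calls lost there are not particular to the synthetases. Relative to the median gene, the median of the 32 genes was 0.45 in irld and 0.46 in N2 with TMM. It was 0.42 and 0.45 with library size and 0.67 and 0.63 with spike-in scaling. With no filter on low counts, where many more genes enter the median, it was 0.29 in irld and 0.30 in N2. A change of scaling shifts all genes by much the same amount, so likeness of these relative values between scalings is largely built in. The log2 values below are those with TMM unless stated, not less the median gene. They describe changes relative to other genes and not absolute amounts. The summed level of the 32 genes was 8009, 7580.0 and 7531 CPM at 72 h in irld, against 3340.4, 5924 and 3948 CPM at 6 h, and 8283, 6669 and 6694 CPM at 72 h in N2, against 3779, 4471 and 4254 CPM at 6 h. The counts of genes that fell rest on few libraries. Without replicate 2 of irld at 6 h 1 gene was lower in irld, without replicate 2 of irld at 72 h there were 2, and without either replicate 2 or replicate 3 of N2 at 6 h there were 3 lower in N2.

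**Figure D2:**
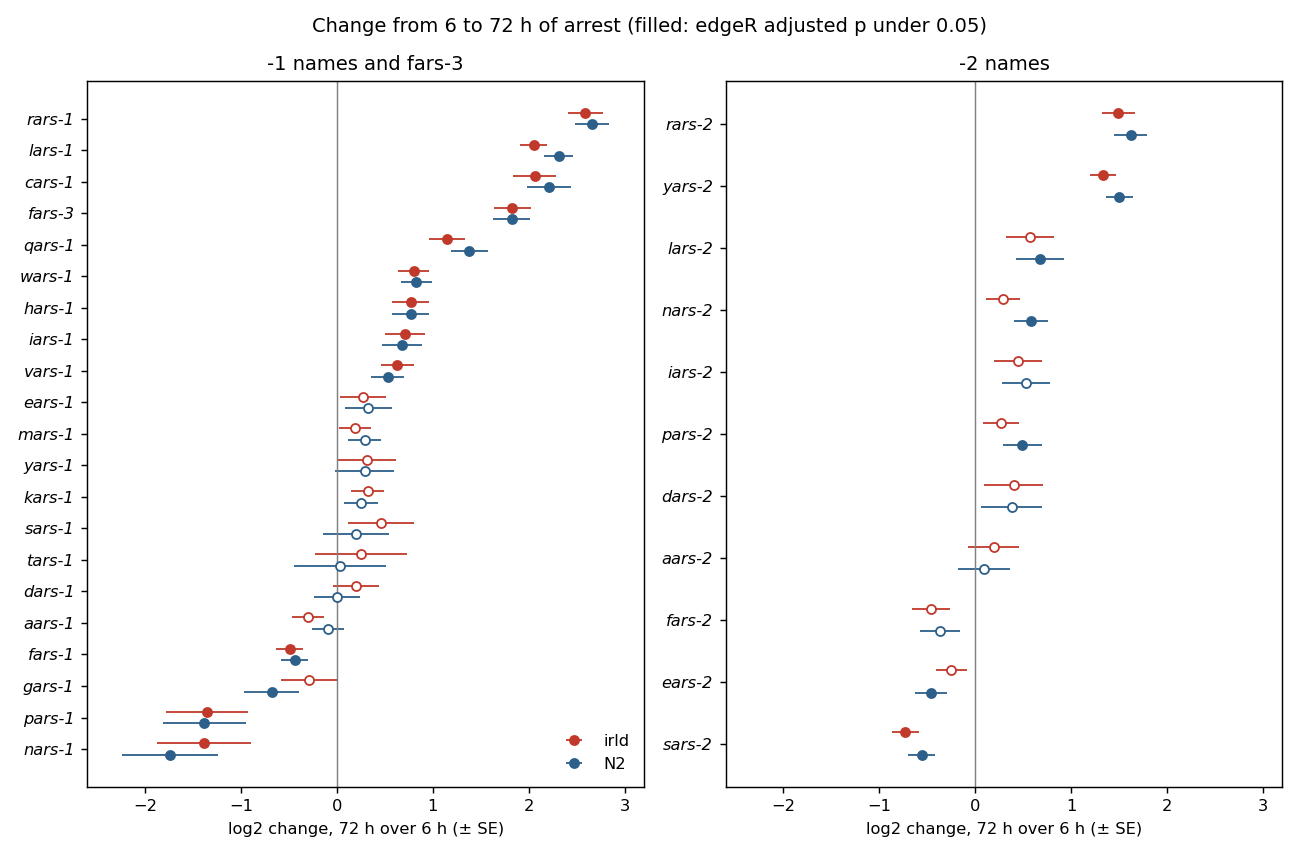
Log2 change from 6 to 72 h with its standard error for each synthetase gene, irld above N2, with the -1 names and fars-3 on the left and the -2 names on the right; filled points passed edgeR's adjusted p under 0.05. The 4 genes at the top of the left panel lie at 1.82 or more in both strains and nars-1 and pars-1 lie at -1.35 or less with TMM scaling; with spike-in scaling none of the higher calls held, and hars-1, iars-1, qars-1, rars-2, vars-1, wars-1 and yars-2 were below 0 in irld.

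Among the -1 names the largest rise was that of rars-1 (WBGene00004679, chromosome III, 4914088 to 4917177, minus strand, WBcel235), the arginyl enzyme. It had 706, 705 and 624 CPM at 72 h in irld, against 134, 114 and 90.5 CPM at 6 h in irld. In N2 it had 701, 578 and 556 CPM at 72 h, against 98.8, 93.3 and 98.6 CPM at 6 h. The 72 h libraries lay far above the 6 h libraries in both strains, with no overlap. The log2 change was 2.59 ± 0.18 (SE) in irld, with edgeR adjusted p = 2.98e-11, and 2.66 ± 0.18 in N2, with edgeR adjusted p = 1.30e-11. The climb was already under way at 12 h, when rars-1 averaged 184 ± 39.5 CPM in irld and 152 ± 17.4 CPM in N2, and it went on through 24 h (367 ± 51.4 in irld and 350.3 ± 54.8 in N2) and 48 h (554 ± 73.2 and 509 ± 81.4).

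The leucyl enzyme gene lars-1 (WBGene00003073, chromosome III, 4181549 to 4186801, minus strand) reached the highest level of the family. In mammals its protein is also known as a sensor of leucine for the growth kinase TOR. It had 1820.5, 1749 and 1749 CPM at 72 h in irld, against 453, 434 and 398 CPM at 6 h in irld. The N2 libraries held 2151, 1595 and 1471 CPM at 72 h, against 351, 400.3 and 302 CPM at 6 h. No 72 h library overlapped a 6 h library in either strain, and the 3 irld libraries at 72 h were closer to each other than those of N2. The log2 change was 2.05 ± 0.14 in irld, with edgeR adjusted p = 4.18e-11, and 2.31 ± 0.15 in N2, with edgeR adjusted p = 5.36e-12. Of all synthetase CPM, lars-1 took 23.01% ± 0.254 at 72 h in irld, against 10.3% ± 3.13 at 6 h, and 24.0% ± 1.99 at 72 h in N2, against 8.45% ± 1.18 at 6 h (SD, n = 3 each).

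The cysteinyl enzyme gene cars-1 (WBGene00000800, chromosome I) had 571, 416 and 475 CPM at 72 h in irld, against 111, 133 and 107 CPM at 6 h in irld. For N2 the values were 634, 439 and 465 CPM at 72 h, against 117, 107 and 109 CPM at 6 h. Every 72 h library was above every 6 h library, by a log2 change of 2.06 ± 0.22 in irld (edgeR adjusted p = 5.50e-08) and 2.21 ± 0.23 in N2 (edgeR adjusted p = 1.53e-08). Unlike rars-1 and lars-1, it was not called at 12 h in either strain, with means of 169 ± 42.4 CPM in irld and 151 ± 9.26 CPM in N2.

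A further 5 of the -1 names rose in both strains by less. These were qars-1 for glutamine, with log2 changes of 1.15 in irld and 1.38 in N2, wars-1 for tryptophan (0.80 and 0.83), hars-1 for histidine (0.77 and 0.77), iars-1 for isoleucine (0.71 and 0.68) and vars-1 for valine (0.63 and 0.53). Each of these 5 turned negative in irld with spike-in scaling. The calls of qars-1, wars-1, hars-1 and vars-1 held in all 30 fits that left out 1 library. That of iars-1 was lost in irld without replicate 1 of irld at 6 h (log2 0.54, edgeR adjusted p = 0.0533) and in N2 without replicate 1 of N2 at 72 h (log2 0.55, edgeR adjusted p = 0.0574).

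The asparaginyl enzyme gene nars-1 (WBGene00003815, chromosome I) went the other way. It had 44.2, 36.9 and 78.04 CPM at 72 h in irld, against 72.2, 227 and 115 CPM at 6 h in irld. N2 larvae had 37.99, 45.6 and 41.3 CPM at 72 h, against 113, 149 and 157 CPM at 6 h. The groups were well apart in N2, and in irld they overlapped through replicate 3 at 72 h. The log2 change was -1.38 ± 0.49 in irld, with edgeR adjusted p = 0.0248, and -1.74 ± 0.50 in N2, with edgeR adjusted p = 0.00559. Without replicate 2 of irld at 6 h the irld value was -0.78, with edgeR adjusted p = 0.235, and it also missed the threshold without replicate 1 or replicate 2 of irld at 72 h. The N2 call held in all 30 fits that left out 1 library.

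The prolyl enzyme gene pars-1 (WBGene00004189, chromosome III, 7239027 to 7241277, plus strand) had 85.5, 84.7 and 127 CPM at 72 h in irld, against 129, 437 and 189 CPM at 6 h in irld. In N2 it had 96.3, 88.1 and 87.1 CPM at 72 h, against 231, 239 and 239 CPM at 6 h. Every 72 h library lay below every 6 h library, narrowly so in irld. The log2 change was -1.35 ± 0.43 in irld (edgeR adjusted p = 0.0123) and -1.38 ± 0.43 in N2 (edgeR adjusted p = 0.00939). Without replicate 2 of irld at 6 h the irld value was -0.64, with edgeR adjusted p = 0.228, and without replicate 2 of irld at 72 h edgeR's adjusted p was just above the threshold. The N2 call held without any 1 library.

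Neither gene was called lower at 12 h. At 12 h nars-1 averaged 120.0 ± 50.9 CPM in irld and 164 ± 49.9 CPM in N2, and pars-1 averaged 215 ± 82.3 and 283 ± 73.9 CPM. At 24 h nars-1 had 57.9, 75.3 and 60.8 CPM in irld and 39.9, 171 and 40.1 CPM in N2. At the same time pars-1 had 117, 138 and 130.2 CPM in irld and 88.8, 297 and 89.4 CPM in N2. The high library in N2 was replicate 2 for both genes, and without it 3 synthetase genes were lower at 24 h in N2, where none was called with it.

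The glycyl enzyme gene gars-1 (WBGene00001744, chromosome III, 5159729 to 5163627, minus strand), whose human counterpart serves both compartments, had 106, 122 and 111 CPM at 72 h in irld, against 88.4, 203 and 124 CPM at 6 h in irld. The N2 libraries held 101, 81.7 and 96.6 CPM at 72 h, against 139, 151 and 159 CPM at 6 h. The groups overlapped in irld and were apart in N2. The irld value of -0.29 ± 0.29 was not called (edgeR adjusted p = 0.42). The N2 value of -0.68 ± 0.29 passed only just (edgeR adjusted p = 0.0493), and it stayed under the threshold in 7 of the 30 fits that left out 1 library, with adjusted p up to 0.148. The difference between the strains in this change was 0.39 on the log2 scale, with a 95% interval of -0.44 to 1.22, and was not called.

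**Figure D3:**
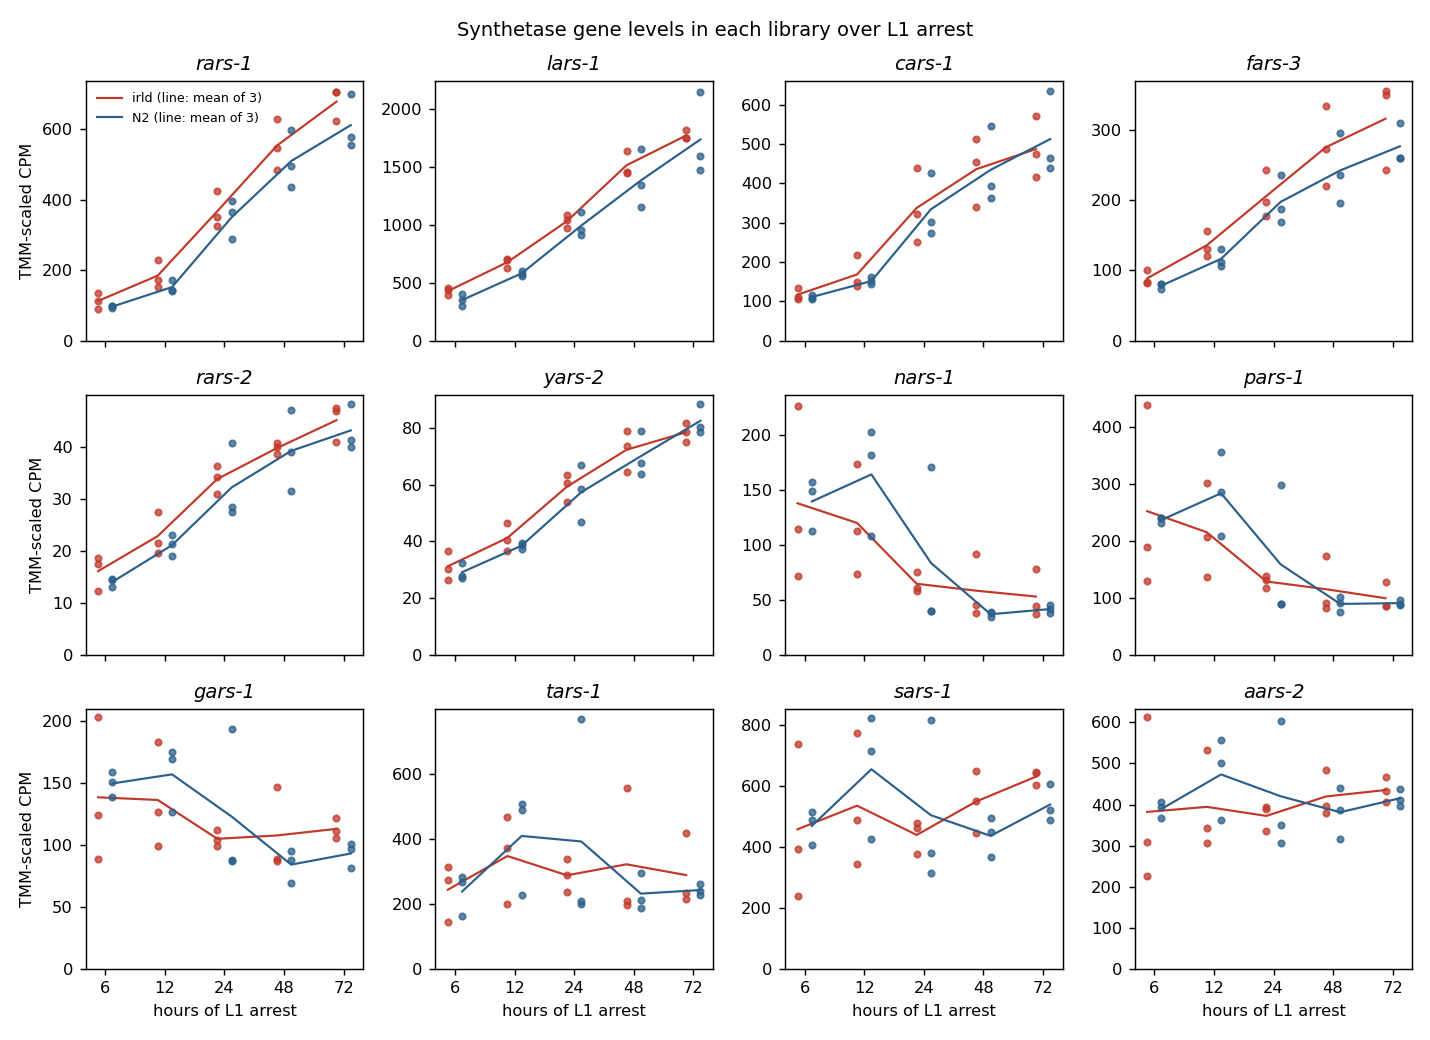
TMM-scaled CPM of 12 synthetase genes in each library (points) and the mean of 3 libraries (lines) over 6 to 72 h of arrest, irld points set left of N2. The upper 6 panels climb throughout in both strains, nars-1 and pars-1 are lower at 48 and 72 h than at 6 h, and the points of tars-1, sars-1 and aars-2 scatter widely within a time.

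Phenylalanine charging in the cytosol of animals needs an enzyme of 2 kinds of subunit, and fars-1 and fars-3 are known as the genes of its alpha and beta subunits. The pair moved apart. The gene fars-3 (WBGene00001498, chromosome II, 8464848 to 8467072, plus strand) had 355, 349.6 and 242 CPM at 72 h in irld, against 101, 83.4 and 81.6 CPM at 6 h in irld. For N2 the values were 310.1, 259.6 and 259 CPM at 72 h, against 80.6, 80.8 and 73.6 CPM at 6 h. All 72 h libraries were above all 6 h libraries, by 1.83 ± 0.19 on the log2 scale in irld (edgeR adjusted p = 1.93e-08) and 1.82 ± 0.19 in N2 (edgeR adjusted p = 1.71e-08).

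In contrast, fars-1 (WBGene00001497, chromosome I) had 27.1, 29.1 and 31.7 CPM at 72 h in irld, against 33.4, 44.7 and 45.6 CPM at 6 h in irld. N2 larvae had 27.8, 27.7 and 29.4 CPM at 72 h, against 34.8, 41.2 and 39.1 CPM at 6 h. The 72 h libraries were the lower ones without overlap in both strains, though the fall was small, at -0.49 ± 0.14 in irld (edgeR adjusted p = 0.00662) and -0.44 ± 0.14 in N2 (edgeR adjusted p = 0.0131). It missed the threshold without replicate 2 or replicate 3 of irld at 6 h in irld, with adjusted p up to 0.0587, and without replicate 2 or replicate 3 of N2 at 6 h in N2, with adjusted p up to 0.0934. Per length, fars-3 was higher than fars-1 in all 30 libraries. The ratio of fars-3 to fars-1 was 11.6 ± 3.07 at 72 h in irld, against 2.36 ± 0.734 at 6 h, and 10.4 ± 1.30 at 72 h in N2, against 2.18 ± 0.245 at 6 h (SD, n = 3 each). Being a ratio within a library, it does not depend on the scaling. The gene fars-3 was named as the sole -3 name, after its values were seen.

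The other 8 -1 names were called in neither strain at 72 h. They were sars-1, tars-1 for threonine, ears-1 for glutamate, dars-1, kars-1 for lysine, mars-1 for methionine, yars-1 for tyrosine and aars-1 for alanine, with log2 values from -0.30 to 0.46 in irld and from -0.09 to 0.33 in N2. The highest gene per length at 6 h, sars-1 (WBGene00005663, chromosome IV, 10003726 to 10005578, plus strand), had 642, 603 and 644 CPM at 72 h in irld, against 239.6, 738 and 394 CPM at 6 h in irld. In N2 it had 607, 489 and 519 CPM at 72 h, against 405, 513 and 487 CPM at 6 h. Both pairs of groups overlapped, with values of 0.46 (95% interval -0.25 to 1.17) in irld and 0.20 (-0.51 to 0.91) in N2. Changes within these intervals were thus not excluded. Without replicate 2 of irld at 6 h, the library with 738 CPM, the irld value was 1.04 (edgeR adjusted p = 0.0217). Leaving out that library also brought aars-2 (0.76), ears-1 (0.78) and dars-1 (0.62) past the threshold as higher in irld.

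In mammals 9 synthetase activities, for arginine, aspartate, glutamate, proline, glutamine, isoleucine, leucine, lysine and methionine, are held in 1 multi-enzyme complex. The worm -1 genes for these 9 did not move together. At 72 h against 6 h, 4 of them rose (rars-1, lars-1, qars-1 and iars-1) and pars-1 fell in each strain, and ears-1, dars-1, kars-1 and mars-1 were not called; with spike-in scaling none of the 4 was called higher. Of the 12 other -1 and -3 names, 5 rose in each strain, while 2 fell in irld and 3 in N2. Of all genes tested, 20.6% were higher and 25.99% lower in irld, and 23.1% and 27.9% in N2. The median log2 change was 0.32 in irld and 0.33 in N2 over the 9, and 0.39 and 0.24 over the 12. This split was made after the values were seen and is a description.

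Among the 11 -2 names, 2 rose and 1 fell in irld at 72 h, and 5 rose and 2 fell in N2; among the 20 -1 names the counts were 8 and 3 in irld and 8 and 4 in N2. In either direction, 27.3% of the -2 names and 55% of the -1 names were called in irld, beside 46.6% of all genes, and 63.6% and 60% in N2, beside 51.1% of all genes. The median log2 change of the -2 names was 0.29 in irld and 0.49 in N2, beside 0.32 and 0.29 for the -1 names. The difference of the class medians, -1 less -2, was 0.03 in irld and -0.20 in N2, and moved between -0.21 and 0.27 in irld when libraries were left out. No difference between the classes was tested.

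The arginyl gene rars-2 (WBGene00004680, chromosome II, 6125559 to 6127942, plus strand) rose as its -1 partner did. It had 47.5, 46.9 and 40.8 CPM at 72 h in irld, against 18.5, 17.4 and 12.3 CPM at 6 h in irld. The N2 libraries held 48.1, 41.2 and 40 CPM at 72 h, against 14.3, 14.6 and 13.1 CPM at 6 h. The groups did not overlap, and the log2 change was 1.49 ± 0.17 in irld (edgeR adjusted p = 1.47e-07) and 1.62 ± 0.17 in N2 (edgeR adjusted p = 3.64e-08), though with spike-in scaling the irld value was -0.00.

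The tyrosyl gene yars-2 (WBGene00006968, chromosome IV, 4710861 to 4712624, minus strand) had 81.98, 78.6 and 75.2 CPM at 72 h in irld, against 36.8, 26.5 and 30.4 CPM at 6 h in irld. For N2 the values were 80.5, 78.8 and 88.6 CPM at 72 h, against 27.2, 27.9 and 32.4 CPM at 6 h. The groups were apart in both strains and the libraries within a group were close. The log2 change was 1.33 ± 0.14 in irld (edgeR adjusted p = 3.25e-08) and 1.50 ± 0.14 in N2 (edgeR adjusted p = 3.50e-09), and the irld value was -0.18 with spike-in scaling.

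The leucyl gene lars-2 (WBGene00003074, chromosome I) had 33.99, 36.3 and 29.5 CPM at 72 h in irld, against 29.2, 21.4 and 16.6 CPM at 6 h in irld. N2 larvae had 31.5, 26.6 and 32.5 CPM at 72 h, against 20.7, 22.3 and 13.7 CPM at 6 h. All 72 h libraries were above all 6 h libraries, but by little in irld, where 0.57 ± 0.25 was not called (edgeR adjusted p = 0.0605) and was under the threshold in 11 of the 30 fits that left out 1 library. In N2 the value was 0.67 ± 0.25 (edgeR adjusted p = 0.0265), and the call was lost without replicate 3 of N2 at 6 h or without replicate 1 or 3 of N2 at 72 h, with adjusted p up to 0.101. The asparaginyl nars-2 and the prolyl pars-2 also rose in N2 alone among the calls, with 0.58 and 0.49 in N2, beside 0.29 and 0.27 in irld. The nars-2 call was lost without replicate 2 of N2 at 72 h, and the pars-2 call without replicate 1 of N2 at 6 h or replicate 2 or 3 of N2 at 72 h; pars-2 was at -0.04 in N2 with library size scaling. For none of lars-2, nars-2 and pars-2 did the change differ between strains by the test of the difference, whose lowest unadjusted p over the 32 genes was 0.202, for lars-1.

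The seryl gene sars-2 (WBGene00005662, chromosome IV, 4357636 to 4359947, plus strand) was the -2 name that fell in both strains. It had 10.4, 7.90 and 9.68 CPM at 72 h in irld, against 13.3, 16.6 and 16.4 CPM at 6 h in irld. In N2 it had 8.83, 10.7 and 11.1 CPM at 72 h, against 14.7, 16.8 and 13.6 CPM at 6 h. The groups were apart, by -0.73 ± 0.14 on the log2 scale in irld (edgeR adjusted p = 0.00016) and -0.56 ± 0.14 in N2 (edgeR adjusted p = 0.0019), and both calls held without any 1 library.

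The glutamyl gene ears-2 (WBGene00001338, chromosome IV, 388686 to 390468, minus strand) had 29.97, 28.4 and 23.1 CPM at 72 h in irld, against 36.99, 30.5 and 28.99 CPM at 6 h in irld. The N2 libraries held 23.8, 21.8 and 19.4 CPM at 72 h, against 29.5, 29.2 and 30.8 CPM at 6 h. The groups overlapped in irld and not in N2. The irld value was -0.25 ± 0.16 (edgeR adjusted p = 0.23) and the N2 value -0.46 ± 0.17 (edgeR adjusted p = 0.022), and the N2 call was lost without any 1 of the 3 N2 libraries at 6 h or without replicate 2 or 3 of N2 at 72 h. At 12 h ears-2 averaged 23.8 ± 4.57 CPM in irld and 21.4 ± 1.04 CPM in N2, within the spread of the 72 h values, and neither was called against 6 h.

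The remaining 4 -2 names were not called at 72 h. Of these iars-2 had 0.44 in irld and 0.53 in N2, dars-2 had 0.40 and 0.38, aars-2 had 0.19 and 0.09, and fars-2 had -0.46 and -0.37. The isoleucyl gene iars-2 was called higher at 24 h, by 0.71 in irld and 0.70 in N2, and its mean was lower again at 72 h, at 47.4 ± 5.08 CPM in irld, against 57.2 ± 8.39 CPM at 24 h, and at 49.2 ± 11.4 CPM in N2, against 55.3 ± 15.9 CPM at 24 h. The alanyl gene aars-2 (WBGene00000197, chromosome I) had 434, 406 and 466 CPM at 72 h in irld, against 225, 613 and 308 CPM at 6 h in irld. For N2 the values were 438, 396 and 412 CPM at 72 h, against 368, 395 and 405 CPM at 6 h. Both sets overlapped.

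Set side by side per length, the -1 gene was higher than the -2 gene of the same amino acid in all 30 libraries for 9 of the 11 pairs. Alanine was the opposite, with aars-2 above aars-1 in all 30 libraries and a ratio of aars-1 to aars-2 between 0.0322 and 0.116. Of that pair the -2 name is also the longer, with 968 codons in aars-2 and 793 in aars-1, whereas in 9 of the 11 pairs the -1 gene is the longer. In these 2 measures the alanine pair goes against reading -1 as the cytosolic gene. For tyrosine the -1 gene was higher in 23 libraries, or in 22 with the longest transcript as the length.

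The ratios moved with time in several pairs. For leucine the ratio of lars-1 to lars-2 was 38.95 at 72 h in irld, against 13.97 at 6 h, and 42.1 at 72 h in N2, against 13.6 at 6 h. For arginine it was 10.4 at 72 h in irld, against 4.84 at 6 h, and 9.80 at 72 h in N2, against 4.77 at 6 h, so that the -1 name gained although both genes rose with TMM scaling. For asparagine it was 3.03 at 72 h in irld, against 9.60 at 6 h, and 2.16 at 72 h in N2, against 10.8 at 6 h. For proline it was 10.7 at 72 h in each strain, against 32.7 at 6 h in irld and 38.9 at 6 h in N2. For tyrosine it was 1.22 at 72 h in irld, against 2.48 at 6 h, and 1.04 at 72 h in N2, against 2.40 at 6 h, near parity by then. Of the 11 pairs the ratio was higher at 72 h than at 6 h in both strains for leucine, arginine, serine, glutamate and isoleucine. It was lower in both for asparagine, proline, tyrosine, alanine, aspartate and phenylalanine, where the last was 4.93 at 72 h in irld, against 5.03 at 6 h, and 4.94 at 72 h in N2, against 5.20 at 6 h. These are ratios of group means and were not tested.

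**Figure D4:**
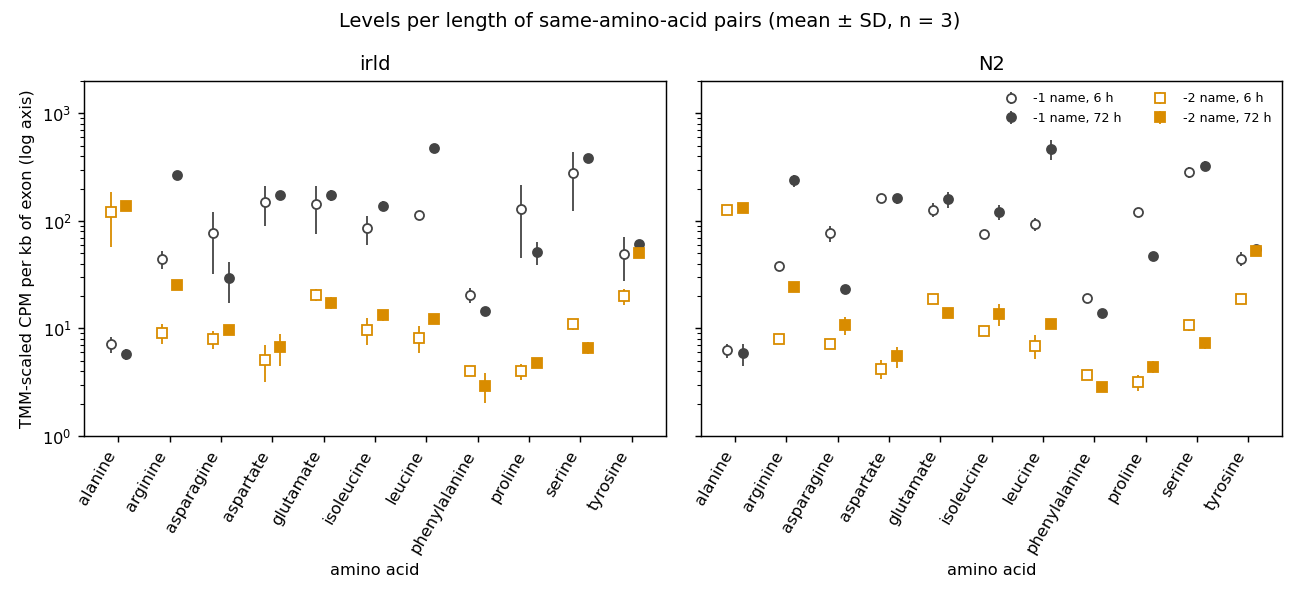
Mean TMM-scaled CPM per kilobase of exon with SD (n = 3, log axis) for the 11 pairs of -1 (circles) and -2 (squares) names at 6 h (open) and 72 h (filled), irld on the left and N2 on the right. The circles lie above the squares except for alanine, where the squares lie far above the circles, and for tyrosine they meet at 72 h.

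The changes built up over the intermediate times. At 12 h against 6 h, 2 genes were higher in irld (lars-1 and rars-1) and 3 in N2 (lars-1, rars-1 and rars-2), and none was lower in either strain; of all genes 1.92% were higher and 2.42% lower in irld, and 2.66% and 3.55% in N2. DESeq2 called 5 genes higher at 12 h in each strain, and edgeR with upper quartile factors called 4 in irld and 6 in N2. The shares of all genes just given are those of edgeR with TMM and do not apply to these counts. At 24 h, 9 genes were higher and 2 lower in irld, and 12 were higher and none lower in N2, beside 14.1% higher and 16.5% lower of all genes in irld and 15.9% and 18.3% in N2. At 48 h, 11 genes were higher and 3 lower in irld, and 11 were higher and 5 lower in N2, beside 18.1% and 23.9% of all genes in irld and 19.99% and 25.6% in N2. The comparisons of a strain share its 6 h libraries, so their counts are not independent of each other. The 2 lower calls at 24 h in irld were fars-1 at -0.38 and kars-1 at -0.47; kars-1 had 105, 91.7 and 79.8 CPM at 24 h in irld, against 111, 115 and 156 CPM at 6 h, and was back at 174, 178 and 125 CPM at 72 h.

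Over all 5 times together, 15 of the 32 genes changed in irld and 20 in N2 (edgeR F test, adjusted p under 0.05), beside 43.1% and 49.6% of all genes. The earlier counts depended on single libraries. At 12 h the higher count in irld was 6 without replicate 1 of irld at 6 h, 4 without replicate 3 of irld at 12 h and 1 without replicate 3 of irld at 6 h or replicate 1 of irld at 12 h; without replicate 1 of irld at 6 h 1 gene was also lower there. The N2 count at 12 h was 1 without replicate 2 of N2 at 6 h or replicate 1 of N2 at 12 h. Both lower calls at 24 h in irld were lost in 12 of the 30 fits without 1 library, and 4 genes were lower without replicate 1 of irld at 6 h. At 48 h no gene was lower in irld without replicate 2 of irld at 6 h, 1 was without replicate 3 of irld at 6 h or replicate 1 or 2 of irld at 48 h, and 3 were lower in N2 without replicate 2 of N2 at 6 h.

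The synthetase genes differed greatly in how much replicates scattered. Within groups the pooled SD of log2 CPM was widest for tars-1, at 0.615, nars-1 at 0.608, pars-1 at 0.531 and sars-1 at 0.448. It was narrowest for sars-2, at 0.14, and for lars-1 and yars-2, at 0.158 each. The threonyl gene tars-1 had 209.6, 197 and 557 CPM at 48 h in irld and 199, 767 and 208 CPM at 24 h in N2. In each of these groups 1 library was more than 2-fold above the other 2, and both are among the 4 libraries that stood apart along the leading component. At 72 h against 6 h tars-1 had values of 0.25 (95% interval -0.75 to 1.25) in irld and 0.03 (-0.97 to 1.03) in N2. Changes within these intervals were not excluded.

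The scatter was shared by a subset of the family. Over the 30 libraries, the deviation of tars-1 from its group mean had a Pearson r of 0.90 with that of nars-1, 0.85 with pars-1, 0.83 with fars-1, 0.81 with gars-1, 0.80 with yars-1 and 0.76 with sars-1. It ran against the deviations of vars-1 (r = -0.82), dars-2 (-0.82), lars-2 (-0.79) and rars-1 (-0.73). Libraries share their RNA preparation, depth and scaling across genes, so these are descriptions of 30 libraries. In replicate 2 of N2 at 24 h 9 synthetase genes were at least 1.5-fold above both other replicates, beside 14.3% of all genes, and in replicate 2 of irld at 6 h there were 9, beside 6.88% of all genes. The first set held aars-2, dars-1, gars-1, mars-1, nars-1, pars-1, sars-1, tars-1 and yars-1, and 7 of them (not mars-1 and tars-1) were also in the second.

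Between the strains no synthetase gene was called. At 6, 12, 24, 48 and 72 h, for the mean of the times, for the change from 6 to 72 h and for the change over all times, edgeR called 0 of the 32 genes and 0.00% of all 15508. At an unadjusted p under 0.05, the mean of times gave 5 of the 32 genes and 837 of all genes, which is 5.40%. These 5 genes were lars-1, rars-1, vars-1, ears-2 and fars-3, all higher in irld, by 0.14 to 0.17 on the log2 scale, and their lowest adjusted p was 0.916. The test at single times gave fars-1 at 48 h with an unadjusted p of 0.0203, and no other synthetase gene at any time; the changes from 6 to 72 h and over all times gave none. DESeq2 also called none of the 32 genes in any of these comparisons.

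The smallest p for the mean of times was that of lars-1. It had 453, 434 and 398 CPM at 6 h in irld, against 351, 400.3 and 302 CPM at 6 h in N2, and 696, 632 and 707 CPM at 12 h in irld, against 579, 605 and 562 CPM at 12 h in N2. At 24 h it had 1086, 970.1 and 1043 CPM in irld, against 1112, 958 and 914 CPM in N2, and at 48 h 1637, 1451 and 1459 CPM in irld, against 1652, 1349 and 1153 CPM in N2. The strains were apart only at 12 h. The mean difference was 0.14 on the log2 scale, with a 95% interval of 0.02 to 0.27, an unadjusted p of 0.0294 and an edgeR adjusted p of 0.916.

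The smallest p for a different course in the 2 strains was that of fars-1, at 0.202 unadjusted. It had 32.9, 28.9 and 35.5 CPM at 48 h in irld, against 25.7, 26.04 and 24.1 CPM at 48 h in N2, with no overlap there. At 12 h it had 30.1, 29.3 and 35.2 CPM in irld, against 27.6, 36.6 and 34.4 CPM in N2, and at 24 h 31.9, 30.96 and 32.1 CPM in irld, against 30.6, 42.4 and 29.3 CPM in N2, overlapping at both times. The authors' deposited table gives a strain difference at each of the 5 times with 1 F score per gene, so its test is of another kind. In that F test of the authors, fars-1 was the synthetase gene with the smallest p-value, at 0.176, with a false discovery rate of 0.99996.

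**Figure D5:**
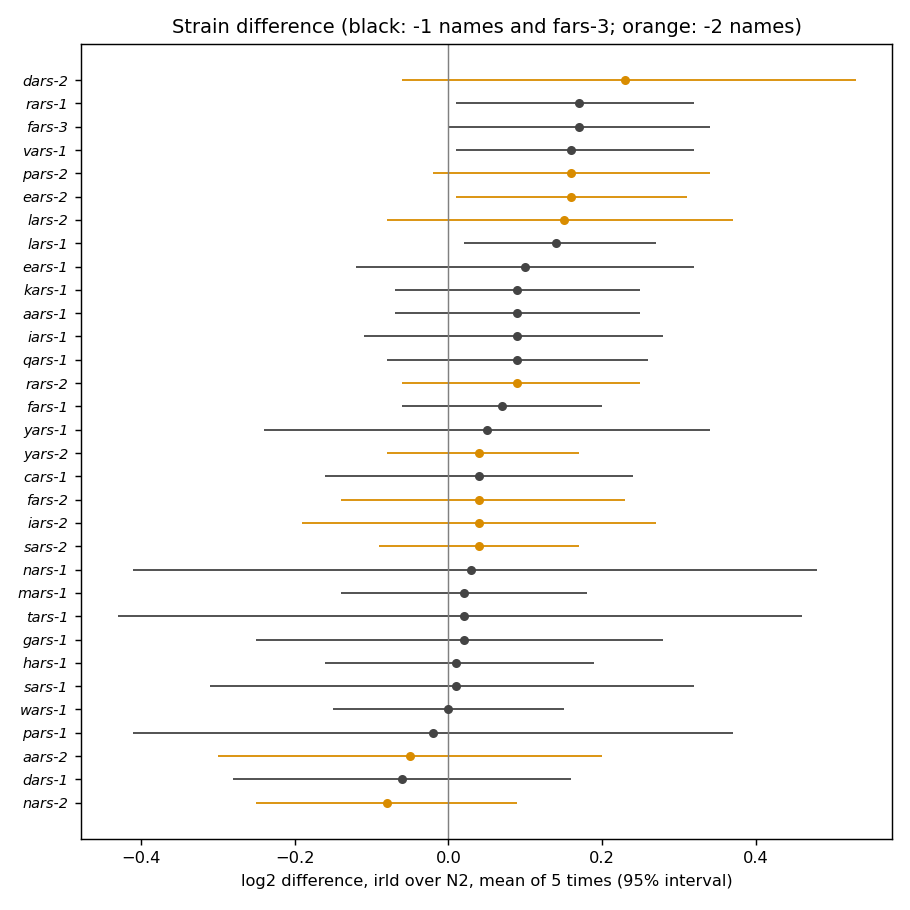
Log2 difference of irld over N2 for the mean of the 5 times with its 95% interval for each of the 32 synthetase genes, -1 names and fars-3 in black and -2 names in orange. The estimates lie between -0.08 for nars-2 and 0.23 for dars-2, and the intervals of nars-1, pars-1 and tars-1 are the widest.

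The intervals bound what the strains could differ by. For the mean of times they reached from -0.41 to 0.48 for nars-1, from -0.41 to 0.37 for pars-1 and from -0.43 to 0.46 for tars-1, while for yars-2 they were -0.08 to 0.17 and for sars-2 -0.09 to 0.17. Strain differences of more than about 0.2 on the log2 scale thus lay outside the interval for yars-2 and sars-2, and inside it for the genes that scatter.

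Other genes of the charging and decoding pathway were tested in the same fit, in which 20.6% of all genes were higher and 25.99% lower at 72 h in irld, and 23.1% and 27.9% in N2. Of 6 genes of cytosolic elongation factors, 5 rose in each strain at 72 h, with medians of 1.11 in irld and 1.31 in N2. Among them were eef-1A.1, which carries charged tRNA to the ribosome (1.51 in irld and 1.68 in N2), eef-2, the translocation factor (1.40 and 1.47), eef-1B.1 (1.19 and 1.40) and eef-1G (1.04 and 1.22). Of 4 genes of mitochondrial translation factors, none rose and tufm-2 fell in each strain, with values of -0.65 in irld and -0.48 in N2. That list depended on the scaling, with 3 lower in irld and 4 in N2 by library size alone, 1 in irld and 0 in N2 by upper quartile, and 0 in both by spike-in controls.

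Of 14 genes of tRNA modification and export, 8 rose and 3 fell in irld, and 9 rose and 2 fell in N2. The wobble-base thiolation gene tut-1 was at 2.92 in irld and 3.26 in N2, and the tRNA methyltransferase gene nsun-2 at 1.53 and 1.58. The Elongator subunit genes elpc-3 (2.22 and 2.39) and elpc-4 (1.90 and 1.92) rose as well, whereas elpc-1 of the same complex fell, at -1.06 in irld and to a like extent in N2. Of 8 genes of RNA polymerase III and its regulators, 6 rose and none fell in irld, and 4 rose and 1 fell in N2. The subunit genes rpc-11 (2.63 in irld and 2.81 in N2), rpac-40 (1.24 and 1.55) and rpac-19 (1.35 and 1.32) rose. The subunit genes rpc-1 (-0.21 and -0.46, not called) and rpc-2 (-0.27 and -0.35, called lower in N2 alone) did not. The fifth list held atf-4, gcn-1, gcn-2 and pek-1, under the list name uncharged tRNA and amino acid limitation, a role not tested for any member. It had 1 higher and 2 lower in irld and 1 of each in N2. The gene atf-4, whose mammalian counterpart is known to raise synthetase genes in amino acid shortage, fell by 1.17 in irld and 1.21 in N2. For gcn-2 the values were -0.53 in irld, called lower, and -0.30 in N2, not called. The only gene called higher was the kinase gene pek-1, at 0.44 and 0.61. By library size alone this list had 0 higher and 2 lower in each strain. With spike-in scaling it had 0 higher in each strain, and 1 lower in irld and 0 in N2. By library size alone the polymerase III list had 3 higher and 2 lower in irld and 3 of each in N2. With spike-in scaling none of the members of the elongation factor and polymerase III lists was called in either strain, and of the tRNA modification list 0 were called in irld and 1 was higher in N2. None of the genes of these 5 lists was called between the strains for the mean of times.

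Tissue markers moved too. All 5 pharynx markers fell in irld and 2 of 5 in N2, beside 25.99% and 27.9% of all genes called lower. Their summed levels were 650.4 to 1085 CPM at 72 h in irld, against 2651 to 4394 CPM at 6 h. In N2 the sums were 435 to 2269.9 CPM at 72 h, against 2629 to 3945 CPM at 6 h. Germ cell markers summed to 23.8 to 39.7 CPM at 72 h in irld, against 54.3 to 94.9 CPM at 6 h. In N2 they summed to 16.96 to 49.6 CPM at 72 h, against 56.96 to 78.8 CPM at 6 h. Called lower were 1 of 5 in irld and 2 of 5 in N2, beside 25.99% and 27.9% of all genes. The germ cell markers nos-2, pgl-1 and xnd-1 were at 0.95, 0.24 and 0.11 in N2 and at -0.49, -0.41 and -0.50 in irld, none called. Body muscle markers summed to 14725 to 19235 CPM at 72 h in irld, against 9856 to 15851 CPM at 6 h. In N2 they summed to 15815 to 17738 CPM at 72 h, against 9547 to 16254 CPM at 6 h, with overlap in both strains. Of these markers unc-54 alone had positive values, at 0.70 in irld and 0.84 in N2, called higher in both. In the same order unc-22 was at -0.96 and -0.93, called lower in both. The markers myo-3 (-0.37 and -0.42), hlh-1 (-0.32 and -0.47) and unc-15 (-0.20 and -0.17) were not called. Of 5 genes each for neurons, intestine, body muscle and hypodermis, at most 1 was higher and at most 2 were lower in a strain. Of all genes 20.6% were higher and 25.99% lower in irld, and 23.1% and 27.9% in N2. Single markers moved far, with the intestinal act-5 at -3.80 in irld and -4.07 in N2, called lower. The intestinal elt-7 was called higher, at 1.05 and 0.93. The hypodermal dpy-7 was called lower, at -2.32 and -4.19. None of 3 adult and sperm markers tested was called. The part of the tissue markers in the synthetase changes was not tested.

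A pair of genes outside the name rule belong with this family by function. The gene glp-4, known to encode a valyl enzyme, had 111, 90.4 and 159 CPM at 72 h in irld, against 114, 320.2 and 316 CPM at 6 h in irld, and 95.5, 86.2 and 123 CPM at 72 h in N2, against 156, 255 and 336 CPM at 6 h. Its values of -1.06 in irld and -1.29 in N2 were not called at 72 h, while vars-1, the named valyl gene, rose in both strains. Per kilobase of exon, glp-4 averaged 70.1 CPM at 6 h in irld and 69.8 in N2, against 14.4 and 13.5 for vars-1. At 72 h glp-4 had 33.7 and 28.4, against 22.3 and 19.5. It is also the longer, with 1050 codons and 978 in vars-1. As for alanine, these measures go against reading vars-1 as the cytosolic gene. In the class counts vars-1 was placed by its name alone, and its compartment was not tested. The gene mars-2, named so in the RefSeq table alone, was at -0.27 in irld and -0.16 in N2, neither called.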

How the data were processed

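Polyadenylated RNA of 30 libraries was sequenced by the authors as 50 bp paired-end reads. Per the authors' text sheet, alignment was by Bowtie 1.2.2, an aligner that makes no spliced alignments, and the reference was WS273 plus 92 ERCC spike-in sequences. HTSeq 0.11.2 and edgeR 3.24.4 are named in the submitters' processing notes; whether counting used strand is not given in the sources used here. The deposited counts are whole reads per gene, and the counts of each library equal its column in the table. The authors' deposited CPM were not used. The authors' deposited table gives log2 fold changes, log2 CPM, an F score, p-values and adjusted p-values of their own test, from which 1 p-value and its adjusted p-value are quoted. Per the labels' protocols the ERCC amount followed the amount of total RNA, so spike-in scaling does not measure RNA per larva.

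Symbols were found for 44053 of 46911 genes (93.9%). Names and exon lengths came from Ensembl 115 (WBcel235). Between 2.746% and 4.136% of reads were ambiguous and 1.094% to 2.277% fell in no gene, and these stayed out of library sizes. Counts were fitted with edgeR 4.0.16 (R 4.3.3; TMM, robust quasi-likelihood, filterByExpr, 1 coefficient for each of 10 groups), with Benjamini-Hochberg adjustment over 15508 genes. The fit was also run on simulated counts drawn independently for each gene and library. Those counts lack the scatter that genes share here, so the run does not bear on it. Replicates never agreed within sampling noise. Alternatives were DESeq2 1.42.0, 4 other scalings, 2 other filters, a replicate block and leaving out libraries. Values per library are given for the highest gene per length at 6 h in N2 in each name class, the 3 largest rises and falls in N2 in each class, the smallest p between strains, and genes called against the direction of most of their class; those for tars-1, kars-1, fars-3 and glp-4 were added after their values were seen. The members and lists were chosen with earlier results of these data known. P-values measure the spread between these samples.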

Additional observations from a re-analysis of the deposited data

How the results depend on the processing

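Precision is set by 3 libraries per group, and for tars-1, nars-1, pars-1 and sars-1 by their scatter. Depth limits the low genes: at the mean count per library, counting error alone gives a log2 SD of 0.192 for pars-2, 0.194 for fars-2, 0.125 for sars-2 and 0.132 for nars-2, beside replicate SDs of 0.199, 0.217, 0.14 and 0.212. For the other members it was under 0.5 of the replicate SD. Of 3937 values of single genes under 41 other fits, 3766 kept direction and side of the threshold, 121 were no longer called, 42 became called and 8 reversed. The reversals were, with spike-in totals in irld at 72 h, hars-1 at -0.41, iars-1 at -0.43, qars-1 at -0.36, rars-2 at -0.00, vars-1 at -0.86, wars-1 at -0.42 and yars-2 at -0.18, and with library size pars-2 in N2 at -0.04. Calls between strains stayed at 0 under every alternative. With CPM above 1 in 3 libraries no count moved by over 1.5 times.

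Counts of synthetase genes called against 6 h moved as follows. The share of all genes called also changes with the setting and is not set beside each count. Moves of the counts are thus not particular to the synthetase genes. DESeq2 gave 5 higher at 12 h in each strain and 1 lower at 24 h in irld. Upper quartile factors gave 4 higher in irld and 6 in N2 at 12 h, and 0 lower at 24 h in irld, as did RLE factors. With no filter on low counts, irld had 0 lower at 24 and 48 h and N2 had 13 called over all times. With library size alone, 1 gene was lower at 12 h in each strain; irld had 6 lower at 24 h, 7 called each way at 48 h, and at 72 h 7 were higher and 8 were lower; N2 had 7 higher with 3 lower at 24 h, 7 higher with 8 lower at 48 h, and 7 higher at 72 h. With spike-in totals none was higher at 12, 24, 48 or 72 h in either strain (0 each); irld had 0 lower at 24 h and 2 at 72 h, with 1 called over all times, and N2 had 2 lower at 48 h and 0 at 72 h, with 2 called over all times. The share of higher among all calls at 72 h was 1.5% in irld and 9.1% in N2 with spike-in totals, and 21% and 21.1% with library size, beside 44.2% and 45.3% with TMM. The cause was not tested.

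Leaving out libraries, the higher counts ranged in irld from 0 to 6 at 12 h, 7 to 11 at 24 h, 8 to 13 at 48 h and 11 to 15 at 72 h, and in N2 from 0 to 3, 9 to 14, 8 to 13 and 11 to 15. The lower counts ranged in irld from 0 to 1, 0 to 4, 0 to 4 and 0 to 5, and in N2 from 0 to 0, 0 to 3, 1 to 5 and 1 to 6. Over all times 9 to 18 genes were called in irld and 9 to 22 in N2. The difference of class medians ranged from -0.21 to 0.27 in irld and from -0.34 to -0.03 in N2. The same 10 genes stayed higher at 72 h in all 30 fits without 1 library in both strains, namely cars-1, fars-3, hars-1, lars-1, qars-1, rars-1, rars-2, vars-1, wars-1 and yars-2. Without a replicate in a group, its remaining libraries share the spread of the other groups.

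Replicate numbers were not taken to pair samples, since same-numbered libraries correlated in their deviations between -0.346 and 0.577 over 135 pairs, of which 78 were over 0.1, with a median of 0.1239, while 56 of 270 pairs of different numbers were over 0.1, with a median of -0.0752; 23 of 30 libraries correlated best with their own number, a hint from the data and not the design. With the number as a replicate block, 7 genes were higher in irld and 6 in N2 at 12 h, and 1 was lower in N2 at 12 h; other counts stayed within 1.5 times. The planned assignment of compartments from protein descriptions was not run, because the reference table gives no compartment. Leaving out the alanine pair, an alternative chosen after seeing the data, gave a difference of class medians of -0.02 in irld and -0.22 in N2.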
